A study of Mus musculus with 8 samples.

Results

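The Cyp2b genes encode cytochrome P450 enzymes of the endoplasmic reticulum, and 4 of them were followed in the liver of male mice of the outbred CD-1 stock: Cyp2b10, Cyp2b9, Cyp2b13 and Cyp2b23. They were found by gene symbol among the 62976 features (spots) of a one-colour Agilent array, where each had 1 feature, and they are 4 of the 20738 genes with a symbol. Cyp2b19, another gene of the subfamily, was not counted among them and is given for comparison. Of the 8 arrays, 4 hold RNA from mice fed NaPB (sodium phenobarbital, a barbiturate) at 2500 ppm for 7 days, and 4 hold RNA from mice fed the control diet (0 ppm) for as long. The comparison asks how far each Cyp2b transcript differed between the diets. No age of the mice is given in the sources used here. Whether each array stands for a different mouse is not stated in the labels; the p-values therefore describe the spread among these samples, which may be technical.

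In hepatocytes phenobarbital leads to activation of the nuclear receptor CAR (Nr1i3), which enters the nucleus and pairs with the retinoid X receptor. The pair binds a distal enhancer of Cyp2b10, the phenobarbital-responsive module. Cyp2b10 is the mouse gene classically used to read this activation, and its enzyme oxidizes many drugs and other foreign compounds. Cyp2b9 and Cyp2b13 are known in adult mouse liver as female-biased genes, kept low in males by the male pattern of growth hormone secretion.

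All members lie on mouse chromosome 7 in a cluster of Cyp2 genes. In the RefSeq annotation of GRCm38.p6 the order is Cyp2b10, Cyp2b13, Cyp2b9, Cyp2a4, Cyp2b23 and Cyp2b19, with other genes and 3 Cyp2b pseudogenes in between. RefSeq windows of 300 bases, from 250 before the annotated start of transcription to 50 after it, show which members share a proximal promoter. For Cyp2b10 (GRCm38.p6, chr7:25897408-25897707, plus strand) and Cyp2b23 (chr7:26686381-26686680, minus strand) the capitals mark 8 bases of the type bound by C/EBP factors, found in the same form in both. For Cyp2b9 (chr7:26173159-26173458, plus strand) and Cyp2b13 (chr7:26061245-26061544, plus strand) the capitals mark the bases at which these windows differ.
Cyp2b10: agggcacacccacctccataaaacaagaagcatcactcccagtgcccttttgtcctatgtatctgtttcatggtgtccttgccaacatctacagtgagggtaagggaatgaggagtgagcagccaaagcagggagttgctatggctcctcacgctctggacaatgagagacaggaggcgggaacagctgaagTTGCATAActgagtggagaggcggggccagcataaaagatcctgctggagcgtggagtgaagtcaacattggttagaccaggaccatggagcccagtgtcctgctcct
Cyp2b23: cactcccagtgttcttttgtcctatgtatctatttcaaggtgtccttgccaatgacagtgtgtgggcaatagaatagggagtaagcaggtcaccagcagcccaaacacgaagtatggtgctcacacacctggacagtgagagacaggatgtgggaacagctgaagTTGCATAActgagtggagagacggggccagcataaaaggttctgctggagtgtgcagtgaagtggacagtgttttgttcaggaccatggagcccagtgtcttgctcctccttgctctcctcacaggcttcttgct
Cyp2b9: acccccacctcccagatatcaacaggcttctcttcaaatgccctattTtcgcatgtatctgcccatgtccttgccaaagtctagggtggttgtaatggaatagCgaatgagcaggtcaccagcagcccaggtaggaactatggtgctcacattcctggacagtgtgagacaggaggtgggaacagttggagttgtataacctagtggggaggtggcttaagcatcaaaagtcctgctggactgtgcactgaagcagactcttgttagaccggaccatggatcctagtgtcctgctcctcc
Cyp2b13: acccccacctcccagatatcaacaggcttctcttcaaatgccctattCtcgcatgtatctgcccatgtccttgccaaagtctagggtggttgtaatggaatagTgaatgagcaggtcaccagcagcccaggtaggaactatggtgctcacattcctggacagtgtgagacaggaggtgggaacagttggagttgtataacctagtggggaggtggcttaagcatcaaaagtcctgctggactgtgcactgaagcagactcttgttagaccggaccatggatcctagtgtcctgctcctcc

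The windows of Cyp2b9 and Cyp2b13 were identical at 298 of 300 bases, with the differences T48C and C104T, written as the Cyp2b9 base, the position from 1 at the 5′ end of the window and the Cyp2b13 base. By the share of aligned bases, the window of Cyp2b10 was closest to that of Cyp2b23, with 222 of 261 identical (85.1%). For Cyp2b9 and for Cyp2b13 it was 223 of 289 (77.2%). These shares leave out columns with a gap, the ends included. There were 78 such columns with Cyp2b23 and 22 with Cyp2b9 and with Cyp2b13. On both strands, the letters TTGCNNAA occurred once in each member's window (10.8% of 32851 RefSeq windows hold them): as TTGCATAA at -58 in Cyp2b10 and -85 in Cyp2b23, and as TTGCCAAA at -180 in Cyp2b9 and Cyp2b13. The nuclear receptor hexamer AGGTCA occurred once in Cyp2b9 and Cyp2b13 (-138) and once in Cyp2b23 (-164), but not in the Cyp2b10 window; 16.3% of windows hold it. No member's window held TTCNNNGAA, the STAT letters (8.3% of windows), TATAAA (13.6%) or GGGCGG (35.7%). These matches describe letters in the windows alone, and the distal enhancer lies outside them.

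On the NaPB diet Cyp2b10, Cyp2b9 and Cyp2b13 rose and Cyp2b23 did not pass the test. By limma, with Benjamini-Hochberg adjustment over all 20738 genes and a threshold of 0.05, 3 of the 4 genes were called higher, against 81 genes or 0.391% of all genes tested. The same 3 genes had every NaPB array above every control array, which held for 2.72% of genes. Values are scaled intensities, linear and with the 75th percentile of each array close to 1. They are compared here only between arrays for the same gene, because different probes need not be equally bright. NaPB replicate 2 was deposited in coarser steps than the others, with 3443 distinct values against 62756 to 62839, and between intensities of 1 and 50 its steps were at most 0.0144 log2 units. Cyp2b9 and Cyp2b13 are close relatives, and probe sequences were not used here, so how much of either signal comes from the other transcript or from a Cyp2b pseudogene was not tested; the same holds for Gsta1 and Gsta2 and for Sult2a1 and Sult2a2, named further on. Folds are ratios of geometric means. In whole liver, fewer cells that make a transcript and less of it per cell cannot be told apart.

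Cyp2b10 had intensities of 521, 491, 430 and 77.7 on NaPB replicates 1 to 4, against 3.72, 0.863, 2.98 and 5.22 on control replicates 1 to 4. The lowest NaPB array was 14.9-fold above the highest control array, so the diets were far apart, and NaPB replicate 4 lay well below the other NaPB arrays. The geometric mean was 304 on the NaPB diet (log2 SD 1.32, n = 4) and 2.66 on the control diet (log2 SD 1.13, n = 4). The log2 fold change was 6.84 ± 0.69 (SE; 95% interval 5.32 to 8.36; limma adjusted p = 0.0018), or 114-fold, and it ranked 1 among the fitted fold changes of all genes. Control replicate 2 was the lowest of the control arrays for this gene, and the control values spanned 6.05-fold.

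Cyp2b9 had intensities of 14.9, 15.0, 10.2 and 1.71 on NaPB replicates 1 to 4, against 0.184, 0.254, 0.516 and 0.427 on the control arrays. Every NaPB array was higher than every control array, by at least 3.32-fold, and NaPB replicate 4 was again the lowest of its diet. The geometric mean was 7.90 on the NaPB diet (log2 SD 1.49, n = 4) and 0.319 on the control diet (log2 SD 0.68, n = 4). This gave a log2 fold change of 4.63 ± 0.65 (95% interval 3.19 to 6.08; limma adjusted p = 0.00849), or 24.8-fold, at rank 14.

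Cyp2b13 had intensities of 7.48, 5.33, 1.62 and 0.798 on NaPB replicates 1 to 4, against 0.0643, 0.192, 0.213 and 0.188 on the control arrays. The diets did not overlap, and the NaPB arrays spread over 9.37-fold, with replicates 3 and 4 both below replicates 1 and 2. Control replicate 1 was at the floor, taken here as an intensity of no more than 2 times the minimum of the array. The geometric mean was 2.68 on the NaPB diet (log2 SD 1.50, n = 4) and 0.149 on the control diet (log2 SD 0.81, n = 4). The log2 fold change was 4.17 ± 0.68 (95% interval 2.67 to 5.66; limma adjusted p = 0.0186), or 18.0-fold, at rank 16; with control replicate 1 set at the floor it was at least 15.4-fold. This call was lost without NaPB replicate 2 (log2 3.84; limma adjusted p = 0.0514) and without control replicate 1 (log2 3.76; limma adjusted p = 0.0506).

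Cyp2b23 had intensities of 0.752, 0.447, 0.566 and 0.418 on NaPB replicates 1 to 4, against 0.191, 0.765, 0.540 and 0.487 on the control arrays. The diets overlapped, and the control arrays held both the highest and the lowest value. The geometric mean was 0.531 on the NaPB diet (log2 SD 0.38, n = 4) and 0.443 on the control diet (log2 SD 0.86, n = 4), none of them at the floor. The array medians over all features were 0.288 to 0.396, and whether Cyp2b23 was above background was not tested. The log2 fold change was 0.26 ± 0.42 (limma adjusted p = 0.894), and its 95% interval ran from -0.66 to 1.18. Without control replicate 1, the lowest array, the log2 fold change was -0.14. Cyp2b19, known as a P450 of skin keratinocytes, had intensities of 0.0634 to 0.182 on the NaPB diet and 0.106 to 0.177 on the control diet, and a difference of 0.045 ± 0.37 log2 units (limma adjusted p = 0.983). It was at the floor on 1 array of each diet.

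**Figure D1:**
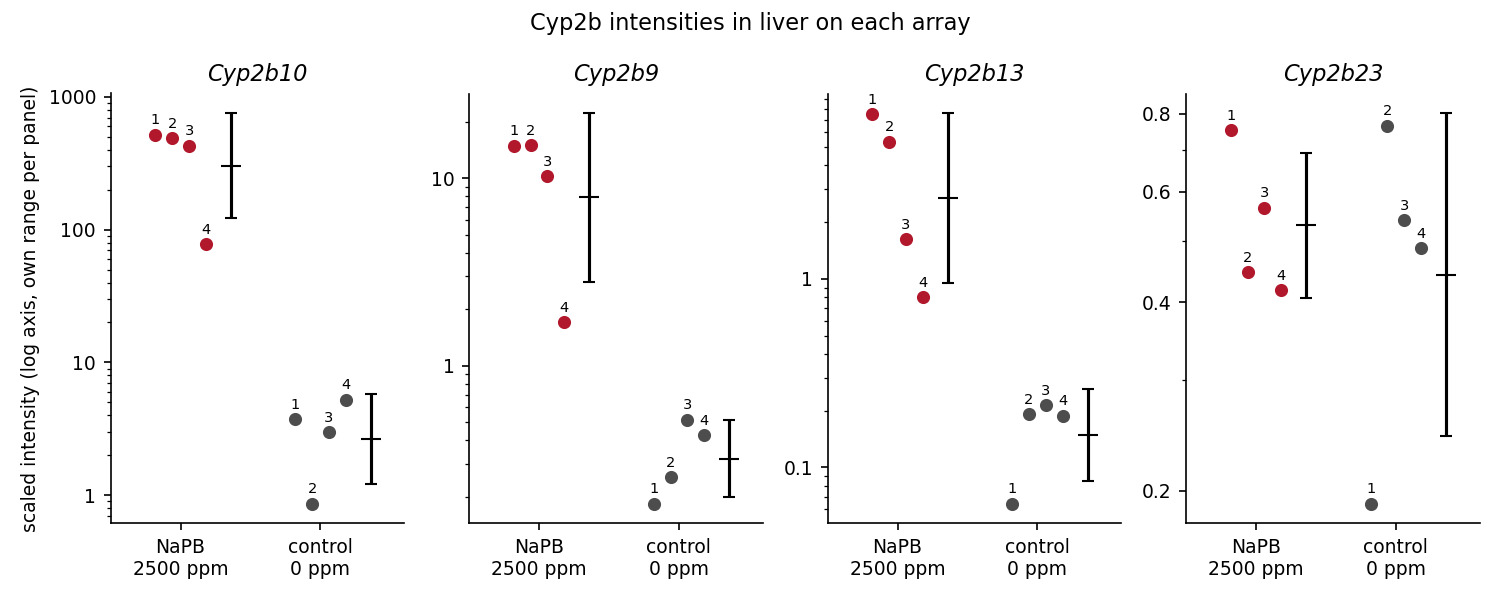
Scaled intensity (log axis, a range of its own in each panel) of each Cyp2b gene on the 4 NaPB arrays (red, left) and the 4 control arrays (grey, right), with the replicate number above each point; the bar is the geometric mean with 1 log2 SD on either side. Cyp2b10, Cyp2b9 and Cyp2b13 have no control array as high as any NaPB array, NaPB replicate 4 is the lowest NaPB point in every panel, and the diets overlap for Cyp2b23.

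The measured log2 differences between the diets were not of the same size in all members. Whether low signals, or signal from another transcript, narrowed some of these differences was not tested. For each of the 6 pairs, the difference of log2 values between 2 members was taken within each array and compared between the diets by a two-sided exact permutation test, whose smallest p with 4 arrays against 4 is 0.0286. Of the pairs, 5 reached it (Benjamini-Hochberg adjusted p = 0.0343 over the 6 pairs). The response of Cyp2b10 exceeded that of Cyp2b9 by 2.20 ± 0.58 log2 units (SE; 97.1% exact interval 0.70 to 3.74) and that of Cyp2b13 by 2.67 ± 0.89 (0.27 to 5.88). Cyp2b23 responded less than Cyp2b10 (6.58 ± 1.05; 3.26 to 9.93), than Cyp2b9 (4.37 ± 0.75; 2.09 to 6.65) and than Cyp2b13 (3.91 ± 0.67; 2.28 to 5.57). These entries are the other gene minus Cyp2b23, and all 4 NaPB arrays lay above all control arrays in each. Between the features of Cyp2b9 and Cyp2b13, the pair with nearly the same proximal window, the difference was 0.47 ± 0.45 log2 units (exact permutation p = 0.457, n = 4 each). Its interval, -0.52 to 2.25, leaves room for a larger response of either. Cyp2b10 and Cyp2b23, the next most similar pair of windows by the share of aligned bases, had the widest difference in response of the 6.

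**Figure D2:**
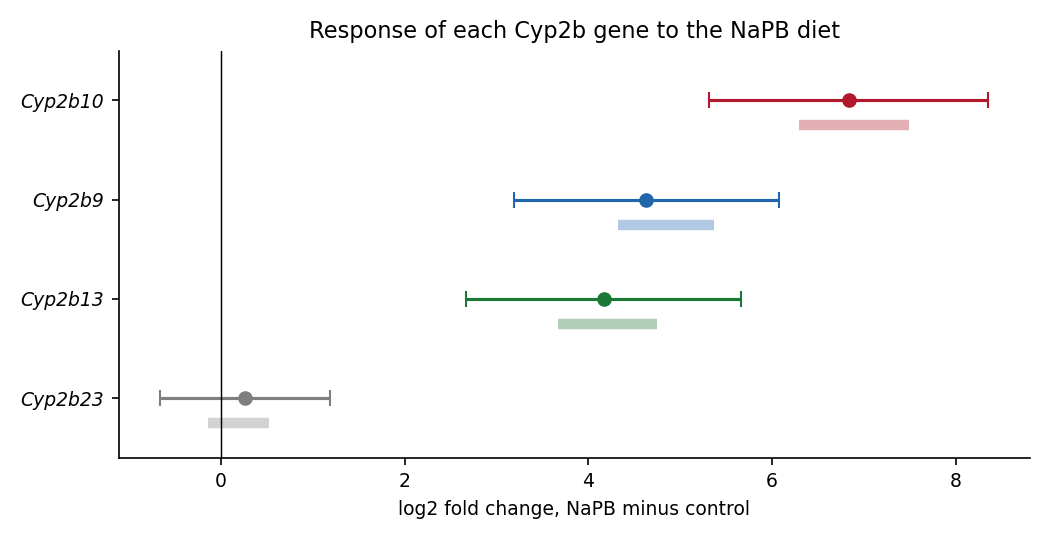
Log2 fold change of each Cyp2b gene, NaPB minus control (points, with the limma 95% interval as the thin line); the pale band below each point spans the values obtained when each of the 8 arrays is left out in turn. Cyp2b10 lies at 6.84, Cyp2b9 at 4.63 and Cyp2b13 at 4.17, while the interval of Cyp2b23 includes 0.

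Across arrays, the 3 genes that rose were lowest on the same NaPB array. Relative to its own control mean, Cyp2b10 was higher by 7.61, 7.53, 7.34 and 4.87 log2 units (NaPB replicates 1 to 4). Cyp2b9 was higher by 5.55, 5.55, 5.01 and 2.42 and Cyp2b13 by 5.65, 5.16, 3.44 and 2.42. On NaPB replicate 4 this left Cyp2b10 29.2-fold, Cyp2b9 5.37-fold and Cyp2b13 5.35-fold above the control geometric mean, and Cyp2b23 at 0.943 of it. Replicate 4 was below the mean of the other NaPB arrays by 6.16-fold for Cyp2b10, 7.69-fold for Cyp2b9, 5.03-fold for Cyp2b13 and 1.38-fold for Cyp2b23. Cyp2b13 alone among them was also low on NaPB replicate 3. The 99th percentile over all features was also lowest on NaPB replicate 4, at 60.6 against 103 to 120 on the other NaPB arrays. On the control arrays it ran from 64.1 (replicate 2) to 118 (replicate 1). What part this had in the low Cyp2b values was not tested. Within the NaPB diet the log2 SD of Cyp2b10, Cyp2b9 and Cyp2b13 was wider than that of 97.6%, 98.7% and 98.7% of all genes, and that of Cyp2b23 wider than that of 39.5%. Within the control diet these shares were 94.2% for Cyp2b10, 76.0% for Cyp2b9, 83.6% for Cyp2b13 and 85.6% for Cyp2b23.

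**Figure D3:**
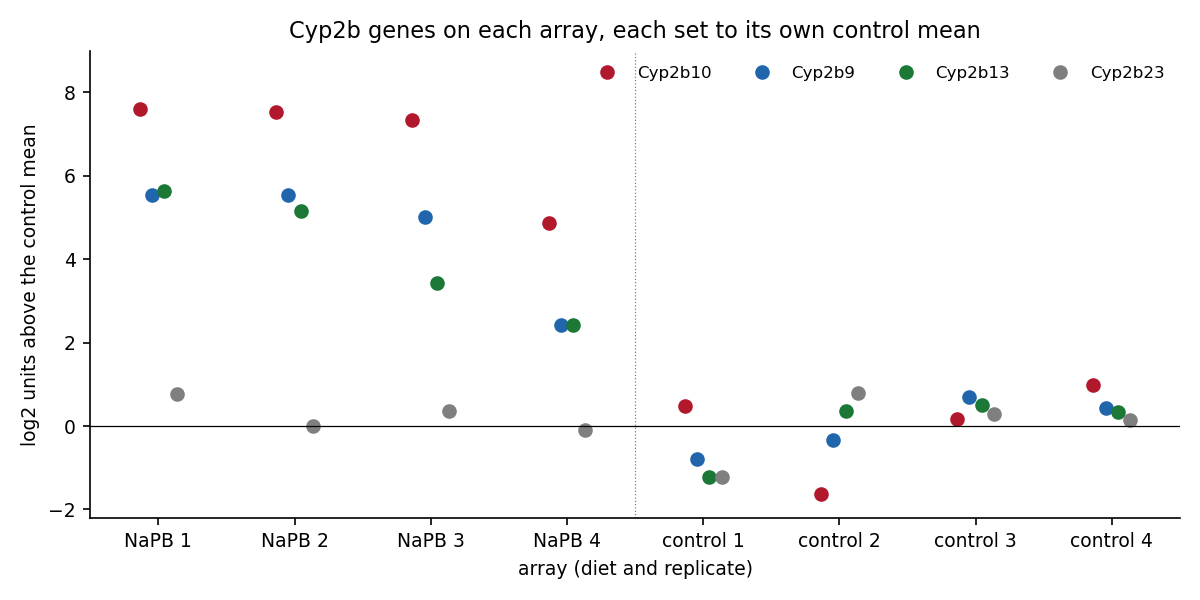
Log2 intensity of each Cyp2b gene on each array, minus the mean of that gene over the control arrays (NaPB arrays left of the dotted line, control arrays right of it). The points of Cyp2b10, Cyp2b9 and Cyp2b13 are lowest on NaPB replicate 4, at 4.87, 2.42 and 2.42, and Cyp2b23 stays between -0.084 and 0.76 on the NaPB arrays.

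NaPB replicate 4 and control replicate 1 also stood apart by their array weights, which were 0.313 and 0.308 against 1.14 to 1.98 for the others. These weights come from the fit on diet. The median correlation with the other arrays was lowest for control replicate 1 (0.914). By that measure NaPB replicate 4 (0.931) was close to NaPB replicate 2 (0.933). Without NaPB replicate 4, the log2 fold change was 7.49 for Cyp2b10, 5.37 for Cyp2b9, 4.75 for Cyp2b13 and 0.38 for Cyp2b23. Without both arrays it was 7.65, 5.10, 4.35 and -0.028 for the 4 genes in the same order, and the same 3 genes were called (limma adjusted p between 0.00113 and 0.00911). Of the marker lists, 7 of 8 listed hepatocyte genes were measured and their summed intensity was 3380 to 5019 on the NaPB diet and 4280 to 7005 on the control diet, with none called (on NaPB replicate 4 they averaged -0.81 log2 units from the control mean). The 6 Kupffer cell and macrophage markers summed to 16.8 to 20.1 on the NaPB diet and 22.9 to 26.9 on the control diet, with none called. Of 4 neutrophil markers, 3 were measured, and their sum was 8.78 to 127 on the NaPB diet and 1.64 to 2.90 on the control diet. S100a8 alone among them was called (46.3, 126, 71.0 and 2.02 on NaPB replicates 1 to 4, against 0.246 to 0.464 on the control arrays), 6.43 log2 units higher on the NaPB diet (limma adjusted p = 0.0176); leaving out NaPB replicates 1 or 3 or control replicates 1, 2 or 3 ended this call (limma adjusted p 0.0506 to 0.0654), while dropping NaPB replicate 2 gave a log2 value of 5.75 and dropping NaPB replicate 4 one of 7.74. S100a9 did not pass (log2 0.84; limma adjusted p = 0.677), and Mpo, the defining enzyme of neutrophil granules, was at the floor on 1 array of each diet (log2 -0.84; limma adjusted p = 0.763). The part of these cell types in the Cyp2b values was not tested.

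The Cyp2b genes that rose lay side by side among the measured genes of the cluster. From Cyp2s1 to Cyp2t4 RefSeq lists 40 genes, of which 17 were measured, 13 of them not Cyp2b members. The measured neighbours Cyp2b10, Cyp2b13, Cyp2b9 and Cyp2a4 all rose, and of the 13 others only Cyp2a4, a female-biased gene whose P450 hydroxylates testosterone, was called (16.7-fold; limma adjusted p = 0.0133). Its intensities were 42.1 to 279 on the NaPB diet and 3.90 to 18.2 on the control diet, its features gave 4.06 (the brighter) and 3.75 on the log2 scale, and without NaPB replicate 1 it missed the threshold (limma adjusted p = 0.0508). Without NaPB replicate 4 its log2 fold change was 4.68. Cyp2a4 has a near-identical copy, Cyp2a5, with no feature of its own name here, so its signal is uncertain. The other 12 measured genes had log2 fold changes from -0.65 to 2.05. The highest was Cyp2g1, a P450 of olfactory mucosa, at 2.05 ± 0.78 (limma adjusted p = 0.365), which passed without NaPB replicate 4 (log2 3.00; limma adjusted p = 0.00493). It did not pass with any other array left out (limma adjusted p 0.474 to 0.697).

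**Figure D4:**
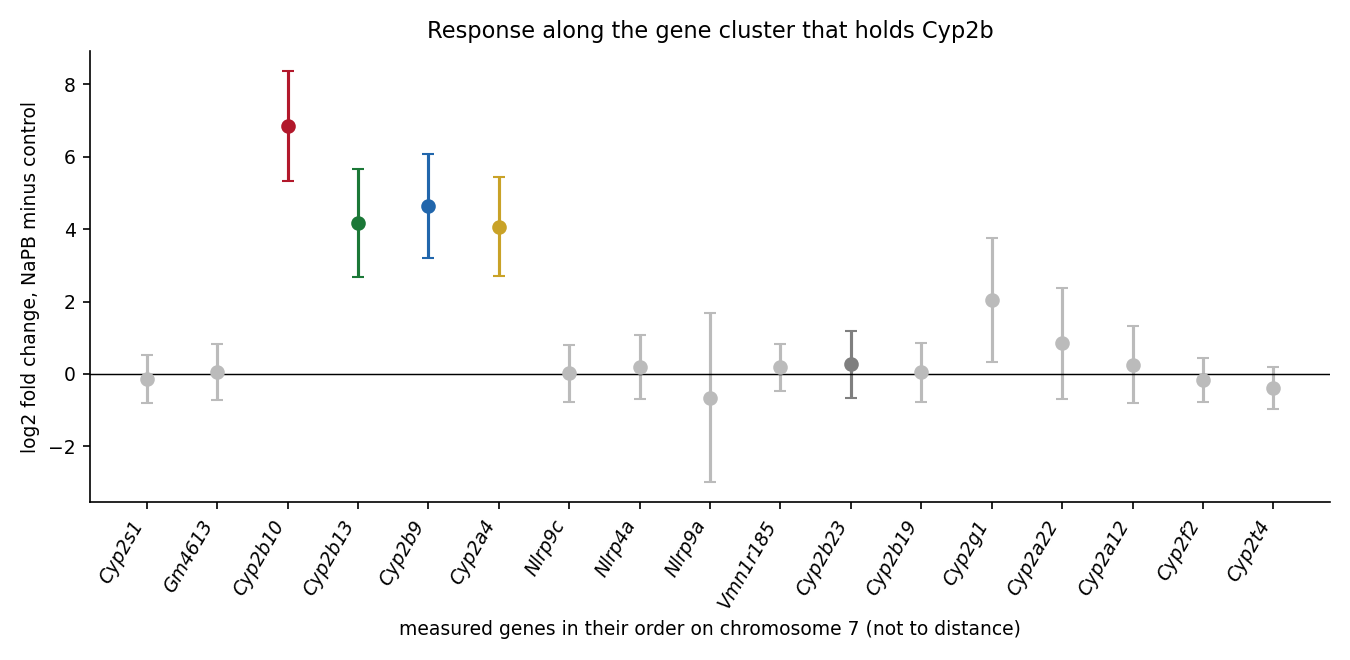
Log2 fold change, NaPB minus control, with limma 95% intervals for the measured genes from Cyp2s1 to Cyp2t4, in their order on chromosome 7 and not to distance; Cyp2b members are in the colours of the other plots, Cyp2a4 in gold and genes that did not pass in pale grey. The neighbours Cyp2b10, Cyp2b13, Cyp2b9 and Cyp2a4 lie between 4.06 and 6.84, and Cyp2b23 lies at 0.26.

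Among other genes, those whose values lay closest to Cyp2b10 array by array were Cyp2c55, Gstm3, S100a8, Meig1 and Prom1, by the root mean square difference over the 8 arrays of log2 values taken from each gene's control mean. The difference was 0.52 log2 units for Cyp2c55, a P450 gene of the Cyp2c subfamily, and 1.05 to 1.19 for the others, among them Gstm3, a glutathione transferase gene, and Meig1, a gene known from spermatogenesis. Cyp2c55 had intensities of 12.003, 15.4, 8.50 and 1.63 on NaPB replicates 1 to 4, with replicate 4 the lowest as for Cyp2b10. On the control diet it had 0.0710, 0.0462, 0.0491 and 0.157, with 3 of the 4 arrays at the floor. For comparison, the distance of Cyp2b10 was 1.71 from Cyp2b9, 2.18 from Cyp2b13 and 4.82 from Cyp2b23. Closest to Cyp2b9 were Mical1, whose product oxidizes actin (0.54), Cyp2a4 (0.61), the glutathione transferase genes Gsta1 (0.71) and Gsta2 (0.84), and Gstm3 (0.94), with the member Cyp2b13 at 0.64. These genes were picked for their likeness, so their values are a description.

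On the receptor side of the pathway no gene passed the test with all arrays. In a list of CAR, its partners and regulators, none of 19 measured genes was called by limma (1 lower and none higher at an unadjusted p under 0.05; median log2 -0.017, against 0.013 over all genes; 10.1% of all genes had an unadjusted p under 0.05). Nr1i3, which encodes CAR, had intensities of 3.76 to 6.92 on the NaPB diet and 3.75 to 8.59 on the control diet, which is a difference of -0.21 ± 0.33 log2 units (95% interval -0.95 to 0.52; limma adjusted p = 0.89). Nr1i2, which encodes the related receptor PXR, had one of 0.44 ± 0.34 (limma adjusted p = 0.757). The smallest p in the list was that of Egfr, the epidermal growth factor receptor, whose signalling holds CAR inactive: -1.37 ± 0.50 on the log2 scale (limma adjusted p = 0.333). All 12 of its features lay below 0, from -1.67 to -0.85. Without NaPB replicate 4 the log2 fold change of Egfr was -1.89 and it was called (limma adjusted p = 0.0288). With any other array left out it was not called.

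Genes that serve P450 enzymes gave no call with all arrays. Of 13 measured genes of electron transfer and heme supply, none was called by limma (2 higher and 1 lower at an unadjusted p under 0.05, against 10.1% of all genes in either direction; median log2 0.035). Por, the reductase that passes electrons to P450 enzymes, had intensities of 8.14 to 77.4 on the NaPB diet and 3.71 to 7.23 on the control diet, a difference of 2.61 ± 0.59 log2 units (limma adjusted p = 0.0761). Alas1, the first enzyme of heme synthesis, differed by 1.59 ± 0.80 on the log2 scale by its brighter feature (limma adjusted p = 0.575) and by 0.55 by its other. Without NaPB replicate 4, on which the Cyp2b genes were also lowest, 3 genes of the list rose, where 1.02% of all genes rose. They were Por (log2 3.26), Alas1 (2.52) and the cytochrome b5 gene Cyb5a (1.54). With any other array left out, no gene of the list was called.

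Of 21 measured other genes known to respond to CAR, 11 rose and none fell, where 0.391% of all genes rose, with a median log2 fold change of 2.38. The count was 9 or 10 when any other array was left out and 18 without NaPB replicate 4, where 1.02% of all genes rose. The 4 with the smallest p were Sult1e1, the oestrogen sulfotransferase gene (at the floor on all control arrays; at least 31.7-fold higher), Gstm3 (44.2-fold, or log2 5.47, by its brighter feature and 3.66 by its other), Gsta1 (32.3-fold) and Cyp2c55 (3 control arrays at the floor; at least 67.6-fold higher). With 1 array left out, the bound for Cyp2c55 ran from 52.2-fold (without NaPB replicate 2) to 111-fold (without NaPB replicate 4).

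Cyp2b9 and Cyp2b13 were set beside other sex-biased liver genes. Of 11 measured other female-biased genes, 7 were called higher by limma and none lower, where 0.391% of all genes were called higher. The median log2 fold change was 3.74, or 3.05 with values below the floor set at it. Cyp2a4, already given as a gene of the cluster, was 1 of the 7. The 4 not called were Hao2 (log2 1.52), Acot3 (0.75), Cux2 (-0.38) and A1bg (-0.49). With 1 array left out, 5 to 8 were called higher. The 4 with the smallest p were Cyp3a44, a P450 gene, Sult2a1 and Sult2a2, sulfotransferase genes, and Prom1, the prominin-1 gene. Against controls at the floor, Sult2a1 was higher by at least 36.9-fold, Cyp3a44 by at least 8.28-fold and Sult2a2 by at least 15.4-fold, and Prom1, at the floor on 2 of the control arrays, was higher by at least 37.2-fold by its brighter feature (log2 0.76 by its other). With 1 array left out, that bound for Prom1 ran from 29.0-fold (without NaPB replicate 1) to 66.1-fold (without NaPB replicate 4). The bounds raise control values below the floor to it; without NaPB replicate 2 they were at least 57.1-fold for Sult2a1 and at least 23.2-fold for Sult2a2. Of 14 measured male-biased genes, 2 fell and none rose, where 0.617% of all genes fell (median log2 -1.20; 10 lower and none higher at an unadjusted p under 0.05), and 3 fell without NaPB replicate 4. Hsd3b5, a steroid dehydrogenase gene at the floor on 1 NaPB array, fell 78.7-fold with that value left as deposited. Raising it to the floor, as in the bounds above, would make the fold smaller. The log2 fold change of Hsd3b5 was -6.30 (-6.95, -6.94 and -5.35 without NaPB replicates 2, 3 and 4). Susd4, a gene of complement regulation, fell 7.65-fold. None of 14 measured growth hormone and sex-bias regulators was called by limma (2 lower and none higher at an unadjusted p under 0.05, against 10.1% of all genes in either direction; median log2 -0.43), nor with any 1 array left out. Ghr, the growth hormone receptor gene, had the smallest p there (log2 -0.999 ± 0.37; limma adjusted p = 0.348).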

How the data were processed

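Total liver RNA was labelled with Cy3 and hybridised to one-colour Agilent arrays, quantified with Agilent Feature Extraction 10.7 per the submitters' processing notes. The deposited values are intensities on a linear scale, 1 per feature and array, which the authors had scaled so that the 75th percentile of each array was between 0.952 and 0.974; the sources used here state neither the scaling rule nor background correction or spot flags. Of 62976 features, 31465 had 1 gene symbol and none several; symbols were updated by RefSeq accession (GRCm38.p6, names and gene order), which changed 3282. Log2 values, with no pseudocount or filter, were fitted with limma 3.58.1 in R 4.3.3, diet as the only term, two-sided, Benjamini-Hochberg adjusted. A gene was represented by its brightest feature; ± values are limma standard errors, and in pair differences those of the array values. Pairs were tested by exact permutation (scipy 1.17.1), and the 97.1% interval inverts that test. Windows were aligned globally with free ends (Biopython 1.88). Precision is limited by the number of arrays.

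The members, lists and tests were chosen with earlier results of these data known. Named were all members, Cyp2b19, Nr1i3, Nr1i2, Por and Alas1. From each list came the 4 called genes with the smallest p, or otherwise the gene with the smallest p. The 5 genes nearest to Cyp2b10 and to Cyp2b9 were also named. S100a9, Mpo, Cyb5a, Cyp2g1, Hao2, Acot3, Cux2 and A1bg were named after their values were seen. Alternatives were quantile and 75th percentile scaling, a filter on dim genes, the mean of all features, single features, a pseudocount, a robust variance trend, array weights, a replicate block, a stricter threshold and leaving out arrays. In data simulated with normal noise and no outlying array, the fit returned the mean size of the largest changes put in. That checks the code and not the calls made here.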

Additional observations from a re-analysis of the deposited data

Results flagged for a closer look

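Among the 8 groups of 4 values (4 Cyp2b genes, 2 diets), 2 held a value whose gap to the nearest of the others, divided by the range of the group on the log2 scale, exceeded Dixon's 95% limit for 4 values; chance gives about 1 in 20 groups. NaPB replicate 4 was the low value for Cyp2b10 on the NaPB diet, with an intensity of 77.7 and a ratio of 0.898. Control replicate 1 was the low value for Cyp2b13 on the control diet, with an intensity of 0.0643 and a ratio of 0.897, at the floor of that array.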

How the results depend on the processing

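Cyp2b10 and Cyp2b9 were called higher under all 19 alternatives, with limma adjusted p from 0.000228 to 0.00999 and from 0.000293 to 0.0355, and Cyp2b23 under none (0.765 to 0.977). Cyp2b13 was called under all but 2 at a threshold of 0.05 (limma adjusted p 0.00261 to 0.0514) and, at log2 4.17, not at a threshold of 0.01. The alternatives are not all separate checks. The stricter threshold reuses the main fit, and the feature alternatives leave the fold changes of the Cyp2b genes as they were, since each has 1 feature. With 1 array left out, log2 fold changes ran from 6.30 to 7.49 for Cyp2b10, 4.33 to 5.37 for Cyp2b9, 3.67 to 4.75 for Cyp2b13 and -0.14 to 0.52 for Cyp2b23. Without both NaPB replicate 4 and control replicate 1, chosen after the data were seen, Cyp2b23 was at -0.028. The number of genes called, 209 (81 higher, 128 lower), was 328 with quantile normalization (100 higher, 228 lower), 812 with array weights (458, 354), 58 at a threshold of 0.01 (27, 31), 643 of all features fitted singly (207, 436), 570 without both arrays (374, 196), and 88 to 365 with 1 array left out (211 higher and 154 lower without NaPB replicate 4, and 77 and 68 without control replicate 1); the cause was not tested beyond what fewer samples or more features imply. With the replicate number as a block, 135 genes were called (58 higher, 77 lower) and the calls of the Cyp2b genes did not change. Deviations of same-numbered arrays correlated at 0.23, -0.29, 0.038 and 0.23. The sample titles number the NaPB arrays otherwise than the control arrays and state no pairing. Whether the replicate numbers pair the samples was not tested. The count of 5 differing pairs was the same under the 4 scaling, feature and pseudocount alternatives, but not all of these could change it. Percentile scaling shifts all log2 values of an array alike, which cancels in a difference taken within the array. The mean of all features is the same value for genes with 1 feature. The count was open to change only under quantile normalization and the pseudocount, and was 5 under each. With 1 array left out the exact test cannot go below 0.0571, so no count is given. Signal over background is not known for single features.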
